A study of Homo sapiens with 4 samples.

Results

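The genes that sense DNA in the cytosol or nucleus and those that build the inflammasome were followed in PC3 cells, a line derived from a bone metastasis of human prostate cancer, after knockdown of the DNA and RNA demethylase ALKBH3. The set was defined by name as 10 genes: TMEM173 (now STING1), IFI16, AIM2, TBK1, IKBKE, TREX1, PYCARD, CASP1, NLRP3 and CASP4. Probes of 9 of these genes were identified among the 19102 genes that could be named on the array, and 8 of them were among the 14556 genes bright enough to be tested. AIM2 was too dim for the test, and no probe was matched to TREX1, the exonuclease that degrades cytosolic DNA. A lentivirus had delivered either an ALKBH3 shRNA or a control shRNA directed at GFP, and puromycin selection then lasted 48 h or 96 h. Total RNA of each of the 4 combinations was hybridised to 1 single-colour Agilent array. The particular ALKBH3 shRNA is not named for these arrays, and nothing says that the cultures of a shRNA were independent. Except where time point is named as a block, p-values thus measure only the spread between the arrays of 48 h and 96 h. The question was whether depletion of a DNA repair enzyme was accompanied by higher expression of the machinery that detects DNA.

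DNA that appears outside its usual place is bound by sensors such as cGAS and IFI16, and the signal passes through the membrane protein STING to the kinase TBK1 and its relative IKBKE, which activate the transcription factors behind type I and type III interferons. AIM2 binds DNA too, but assembles an inflammasome instead: with the adaptor PYCARD (ASC) it recruits CASP1, which matures IL1B and IL18 and cleaves gasdermin D. NLRP3 nucleates the same adaptor and caspase in response to many kinds of cell stress, and CASP4 cleaves gasdermin D after it binds bacterial lipopolysaccharide. IFI16 and AIM2 belong to the same family of sensors and are neighbours on chromosome 1. Many of these genes are themselves induced by interferon.

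The upstream sequences of IFI16 and AIM2 are shown because both DNA sensors were at least 2-fold higher at 48 h. They are the 250 bases before annotated RefSeq starts of GRCh38.p14, on the strand of the gene, with letters that match the ISRE core in capitals. The first lies at chr1:159076767-159077016 on the minus strand, the others at chr1:159008741-159008990 and chr1:159009657-159009906 on the plus strand.
AIM2: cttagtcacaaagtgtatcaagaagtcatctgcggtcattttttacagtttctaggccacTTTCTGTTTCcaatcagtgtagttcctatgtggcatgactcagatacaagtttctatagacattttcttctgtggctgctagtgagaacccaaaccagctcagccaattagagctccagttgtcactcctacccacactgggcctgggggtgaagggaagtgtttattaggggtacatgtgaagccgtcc
IFI16, first window: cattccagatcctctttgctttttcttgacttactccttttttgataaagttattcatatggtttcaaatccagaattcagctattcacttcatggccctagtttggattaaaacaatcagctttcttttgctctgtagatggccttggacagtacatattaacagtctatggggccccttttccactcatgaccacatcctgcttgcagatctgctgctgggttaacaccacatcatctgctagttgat
IFI16, second window: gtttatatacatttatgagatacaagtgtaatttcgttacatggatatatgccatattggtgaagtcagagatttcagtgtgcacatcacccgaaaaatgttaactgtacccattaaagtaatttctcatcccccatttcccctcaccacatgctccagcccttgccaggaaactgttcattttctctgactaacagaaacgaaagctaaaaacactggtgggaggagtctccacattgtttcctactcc
Both strands were searched for the ISRE core GAAANNGAAA, part of the element bound by interferon-activated factors, and for the GAS element TTCNNNGAA, over 250 bases before and 50 after a start, and overlapping matches of both motifs were counted for each. The AIM2 window held an ISRE core, read as TTTCTGTTTC on the strand of the gene, whose base nearest to the start lies 181 bases upstream of it. Windows were found for 7 of the genes, 8 windows in all, and the AIM2 window was the only 1 with the ISRE core, against 3.57% of 35116 RefSeq windows. None of the 8 held the GAS element, which 7.66% of all windows hold. A match describes letters and not a bound site.

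Repeats of a shRNA were limited to its pair of time points, and the arrays sharing a time point also shared a slide, so time and slide cannot be told apart while each shRNA comparison stays within a slide. Signals are log2 intensities relative to the 75th percentile of all probes on the array, and are compared between arrays for the same probe only. The 75th percentile ranged from an intensity of 2150 to 2394, and between 67.0% and 70.9% of probes were well above background. The targeted transcript was lower in both knockdown arrays: ALKBH3 had signals of -0.74 and -0.89 in controls, at 48 h and 96 h in that order, and of -2.48 and -2.41 in knockdown cells, a log2 fold change of -1.63 ± 0.12 (SE, n = 2 arrays per shRNA; limma, adjusted p = 0.253, and 0.0264 with time point as a block). The epithelial markers KRT8, KRT18, EPCAM and CDH1 were well above background on all 4 arrays, whereas KLK3, a marker of luminal prostate cells, was on 0 arrays. EPCAM had a log2 fold change of 0.98 ± 0.24 and CDH1 of 0.74 ± 0.64 (SE, n = 2 arrays per shRNA, limma adjusted p = 0.418 and 0.887, and 0.0264 and 0.0472 with time point as a block), beside 0.03 for KRT8 and -0.07 for KRT18, and their part in the results was not tested. In RNA from a whole culture, a change in the number of cells that express a gene and a change in RNA per cell cannot be told apart.

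IFI16 had the largest fold change over the 4 arrays among the tested genes of the set. It was higher with ALKBH3 shRNA at both times, 3.94-fold at 48 h and 2.27-fold at 96 h. Of the 8 genes tested, it was the only 1 past both cutoffs used in calling, a fold change of 2 and a limma p under 0.05 before adjustment. Those cutoffs called 151 of all genes tested higher, 1.04%, and 34 lower, 0.234%, and 0 genes of the set were called lower. At unadjusted p alone, 1 gene of the set was higher (4.7% of all genes) and 1 lower (3.63%). By limma 0 genes of the array passed an adjusted p of 0.05 (0%), although 1213 had an unadjusted p below 0.05, and 0 passed by the methods' t-test, with 1057.

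**Figure D1:**
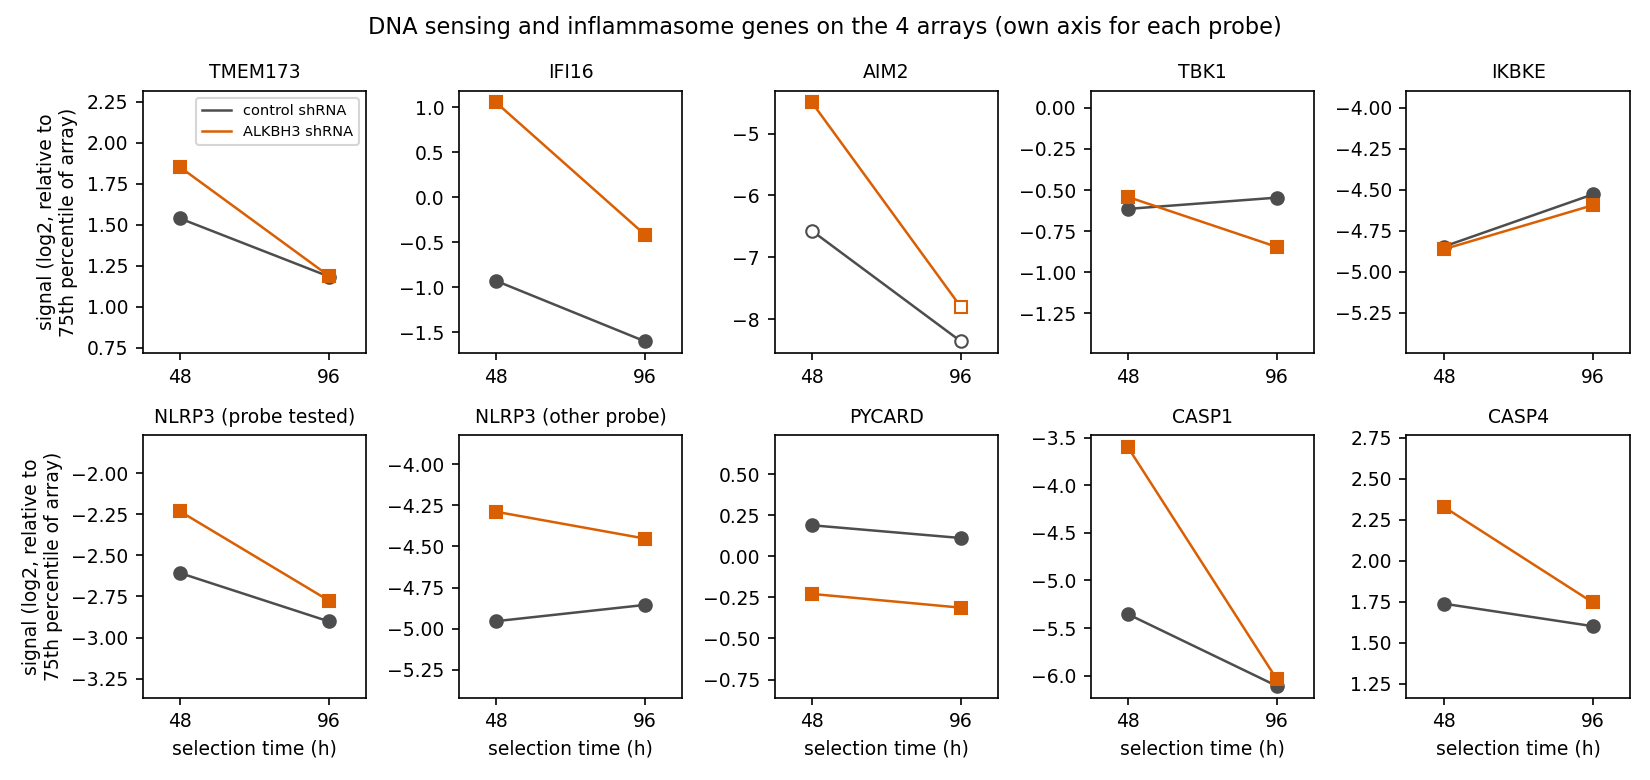
Signal of each probe (log2, relative to the 75th percentile of its array) against hours of puromycin selection, with control shRNA as grey circles and ALKBH3 shRNA as orange squares, 1 array per point, and open symbols for arrays where the probe was not well above background. Each probe has its own axis. IFI16 and CASP4 were above both control arrays on both ALKBH3 shRNA arrays, PYCARD was below, and AIM2 was well above background on the ALKBH3 shRNA array of 48 h alone.

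IFI16 encodes a nuclear and cytosolic sensor that binds DNA and signals through STING. Control cells gave a signal of -0.93 at 48 h and -1.60 at 96 h, where knockdown cells gave 1.05 and -0.42. Both knockdown arrays lay above both controls, which was so for 17.4% of all genes tested. Its log2 fold change, 1.98 at the earlier and 1.18 at the later time, was 1.58 ± 0.55 over both (SE, n = 2 arrays per shRNA, 95% interval 0.12 to 3.04). The unadjusted limma p was 0.0393 and the adjusted p = 0.575. With time point as a block the adjusted p from limma was 0.0418, and IFI16 was then the 1 gene of the set among the 2.96% of all genes that were higher at an adjusted p of 0.05, while 0 were among the 1.5% that were lower. The call was lost without the ALKBH3 shRNA array of 48 h, which left a log2 fold change of 0.85, and without the control array of 96 h, which left 1.25, and likewise by the methods' t-test and with no filter on dim probes. Within each shRNA the signal was lower at 96 h than at 48 h, by 0.67 with control shRNA and by 1.47 with ALKBH3 shRNA.

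Among all genes tested, IFIT1, SAMD9 and IL4I1 had the patterns nearest to that of IFI16 over the 4 arrays, measured as the Euclidean distance of log2 signals after each gene's own mean was subtracted. The distance was 0.059 for IFIT1, an interferon-induced protein that binds viral RNA, 0.096 for SAMD9 and 0.112 for IL4I1, a secreted amino acid oxidase. Their log2 fold changes were 1.58 for IFIT1, 1.58 for SAMD9 and 1.55 for IL4I1, each close to that of IFI16. With only 4 arrays, near patterns describe these arrays and nothing more.

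AIM2, the DNA-binding sensor of the inflammasome, was detected on 1 array. At 48 h its intensity was 22.6 in control and 101 in knockdown cells, and at 96 h it was 7.12 and 10.72, with errors given by the image software of 5.17, 11.4, 7.12 and 6.91. Only the ALKBH3 shRNA array of 48 h was well above background. Its signal was 4.22-fold that of the control at 48 h. This is a plain ratio to a control value not well above background, and not a lower limit. AIM2 did not pass the filter on dim probes, and with no filter its log2 fold change was 1.32 ± 1.34 (SE, n = 2 arrays per shRNA, limma unadjusted p = 0.380). The groups overlapped, since the ALKBH3 shRNA value of 96 h was below the control value of 48 h. Without that ALKBH3 shRNA array of 96 h, the log2 fold change of AIM2 was 2.97. AIM2 then passed the filter only through the 1 knockdown array left, where it was high. That array was assumed to vary like the controls, so no result is drawn from this fit.

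TMEM173 encodes STING, the adaptor on which cytosolic DNA sensing converges. Its signal was 1.54 and 1.18 in control cells, again at 48 h and 96 h in that order, and 1.85 and 1.19 in knockdown cells. The groups overlapped, and at 96 h the 2 shRNAs were nearly level, with a log2 difference of 0.0034. Over both times the log2 fold change was 0.16 ± 0.27 (SE, n = 2 arrays per shRNA, 95% interval -0.57 to 0.89, limma adjusted p = 0.961). STING transcript was well above background on all 4 arrays, and no difference was detected at this number of arrays.

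The kinases downstream of STING gave small differences. TBK1, which phosphorylates STING and IRF3, had signals of -0.62 and -0.55 with control shRNA and -0.54 and -0.85 with ALKBH3 shRNA. The sign of its difference turned between the time points, from a log2 difference of 0.07 at the earlier to -0.30 at the later, and the fold change was -0.11 ± 0.15 over both (SE, n = 2 arrays per shRNA, 95% interval -0.51 to 0.29, limma adjusted p = 0.938). IKBKE, the inducible relative of TBK1, had signals of -4.85 and -4.53 with control shRNA and -4.86 and -4.60 with ALKBH3 shRNA. Its intensities lay between 74.7 and 101 and its log2 fold change was -0.04 ± 0.18 (SE, n = 2 arrays per shRNA, 95% interval -0.51 to 0.43, limma adjusted p = 0.989). For both kinases the interval leaves out a 2-fold change in either direction, but it rests on the spread between the time points alone. Signals of IKBKE were also near background, which limits its ratio.

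PYCARD, the adaptor that joins AIM2 or NLRP3 to CASP1, was lower with ALKBH3 shRNA at both times by nearly the same amount. Its signal was 0.19 and 0.11 in control cells and -0.23 and -0.31 in knockdown cells. Both knockdown arrays lay below both controls, as for 19.1% of all genes, and the log2 fold change was -0.42 at each time. Over both it was -0.42 ± 0.12 (SE, n = 2 arrays per shRNA, 95% interval -0.73 to -0.11), or 0.747 of the control, with an unadjusted limma p of 0.0180 and an adjusted p = 0.472, which was 0.0635 with time point as a block. The difference did not reach the 2-fold cutoff, and without any 1 of the 4 arrays the unadjusted limma p rose to between 0.0618 and 0.119 while the adjusted p stayed above 0.05.

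CASP1, the caspase of the inflammasome, differed between the shRNAs at 48 h and hardly at 96 h. At 48 h its intensity was 52.6 in control and 189 in knockdown cells, and at 96 h it was 33.9 and 36.5, with software errors of 7.06, 19.6, 7.58 and 7.10. The signals were -5.35 and -6.11 with control shRNA and -3.60 and -6.04 with ALKBH3 shRNA, so that the array of ALKBH3 shRNA at 48 h stood above the other 3 and the groups overlapped. Log2 differences of 1.76 at the earlier and 0.07 at the later time gave 0.91 ± 0.86 over both (SE, n = 2 arrays per shRNA, 95% interval -1.37 to 3.20, limma adjusted p = 0.900, and 0.265 with time point as a block). Without the ALKBH3 shRNA array of 48 h the value was -0.30, and without that of 96 h it was 2.13 and passed both cutoffs. The start of CASP1 closely resembles CARD16, a neighbour for which no probe was matched, and whether the CASP1 probe also reads CARD16 was not tested.

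CASP4, the sensor of lipopolysaccharide, had signals of 1.74 and 1.60 with control shRNA and 2.33 and 1.75 with ALKBH3 shRNA. The lower of the knockdown arrays was only just above the higher control. The log2 difference went from 0.59 at 48 h to 0.15 at 96 h and averaged 0.37 ± 0.23 over both (SE, n = 2 arrays per shRNA, 95% interval -0.24 to 0.97, limma adjusted p = 0.789). NLRP3, the sensor of cell stress, was read by 2 probes. The brighter gave signals of -2.61 and -2.90 with control shRNA and -2.23 and -2.78 with ALKBH3 shRNA, a log2 fold change of 0.25 ± 0.23 (SE, n = 2 arrays per shRNA, 95% interval -0.37 to 0.87, limma adjusted p = 0.899). The other probe gave -4.95 and -4.86 against -4.29 and -4.45, with log2 differences of 0.67 at 48 h and 0.40 at 96 h. Both probes were thus higher with ALKBH3 shRNA at both times, but the groups were apart on the dimmer probe alone.

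**Figure D2:**
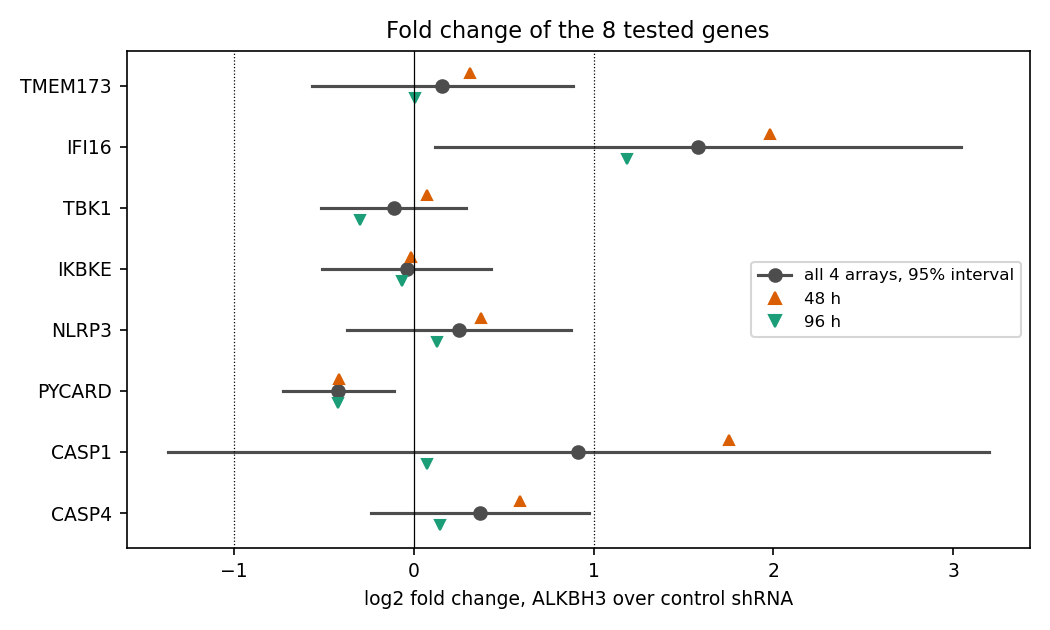
Log2 fold change of ALKBH3 over control shRNA for the 8 genes tested, with the fitted value and its 95% interval over all 4 arrays in grey, and the values of 48 h (triangles up) and 96 h (triangles down), each from 1 array per shRNA. Dotted lines mark a 2-fold change. The intervals of IFI16 and PYCARD leave out 0, and that of CASP1, from -1.37 to 3.20, spans the widest range.

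All 8 genes tested had a higher signed log2 fold change at 48 h than at 96 h, as did 47.2% of all genes, although the gap was only 0.0061 for PYCARD and 0.05 for IKBKE and reached 1.68 for CASP1. In size, the difference was smaller at 48 h for TBK1, IKBKE and PYCARD. The genes at least 2-fold higher at 48 h were IFI16 and CASP1, 2 of 8 against 1.88% of all genes, and at 96 h IFI16 alone, 1 of 8 against 1.46%. In all, 5 of the genes, TMEM173, IFI16, NLRP3, CASP1 and CASP4, were higher at both times, as were 34.6% of all genes, and 2, IKBKE and PYCARD, were lower at both, as were 35.6%. The median log2 fold change of the 8 genes was 0.34 at 48 h, 0.04 at 96 h and 0.20 over both, where the medians of all genes tested were -0.0095, 0.0040 and -0.0030.

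**Figure D3:**
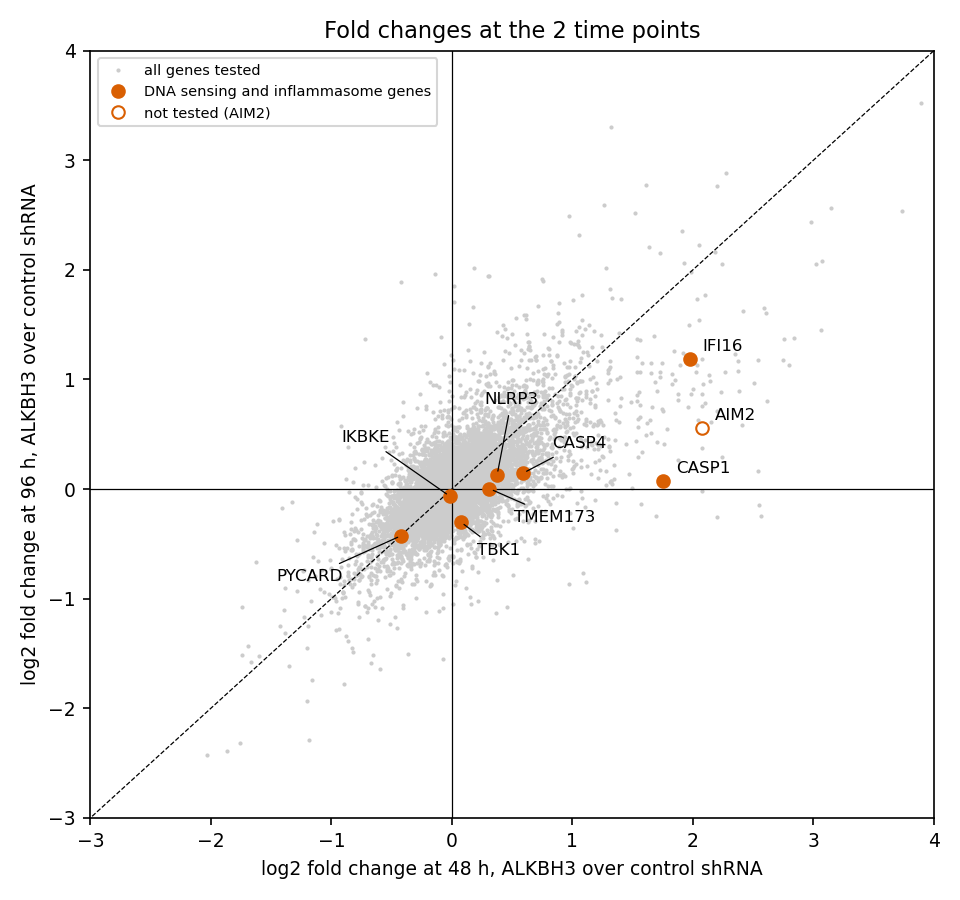
Log2 fold change of ALKBH3 over control shRNA at 48 h (x axis) and at 96 h (y axis), with 1 array per shRNA and time, for the 14556 genes tested (grey) and the genes of the set (orange, AIM2 open since it was not tested). The dashed line marks equal values. IFI16, AIM2 and CASP1 lie far to the right, with 1.98, 2.08 and 1.76 at 48 h, and below the line, and the other genes of the set lie within the cloud.

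Signals also differed between the time points. In control cells 6 of the 8 genes had a lower signal at 96 h than at 48 h, as did 52.5% of all genes, and with ALKBH3 shRNA 7 did, as did 49.6%. The exception in knockdown cells was IKBKE, which was higher at 96 h in both, by 0.32 with control and 0.27 with ALKBH3 shRNA. For CASP1 the log2 difference between 96 h and 48 h was -2.44 in knockdown cells, the lowest of the 8 genes, and -0.75 in controls. These are differences between 1 array and 1 array on separate slides and carry no test.

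The other genes of these pathways were read from lists. Of 16 DNA sensors tested out of 19, 0 were called in either direction, and the median log2 fold change was -0.02. CGAS, the enzyme that makes the messenger bound by STING, had a log2 fold change of 0.19 ± 0.14 (SE, n = 2 arrays per shRNA, limma adjusted p = 0.845), with -0.0049 at the earlier time and 0.39 at the later. The helicase DDX41 had 0.21 and the nucleic acid binding protein LRRFIP1 had -0.14. ZBP1, a sensor of Z-form nucleic acid, was above background on 1 array for each of its probes and was not tested.

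Genes that clear nucleic acids gave 0 calls among the 8 tested, with a median log2 fold change of -0.04. The subunits of RNase H2, which removes RNA from DNA hybrids, had log2 fold changes of -0.10 for RNASEH2A, 0.27 for RNASEH2B and -0.38 for RNASEH2C. Of 14 partners of STING and TBK1 tested out of 15, 1 was called higher and 0 lower, and the median was 0.05. That gene was DTX4, a ubiquitin ligase that acts on TBK1. It was well above background on both ALKBH3 shRNA arrays and on 0 control arrays, and was at least 1.93-fold higher. DTX4 thus entered the test only through the group where it was high. Its p-values rest on control values not well above background (limma adjusted p = 0.371, and 0.0264 with time point as a block). IRF3, the factor that TBK1 activates, had a log2 fold change of -0.17 ± 0.14 and the scaffold TANK -0.12 ± 0.15 (SE, n = 2 arrays per shRNA, limma adjusted p = 0.871 and 0.931). IRF7, an interferon-induced factor, had 1.01 at 48 h and 0.51 at 96 h, and 0.76 ± 0.18 over both (limma adjusted p = 0.405), below the 2-fold cutoff.

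The substrates of the inflammasome differed in direction. IL1B, the precursor of a secreted cytokine, was lower with ALKBH3 shRNA at both times. Its signals were 1.58 and 0.72 with control shRNA and 0.19 and -0.38 with ALKBH3 shRNA. The log2 fold change was -1.25 ± 0.36 (SE, n = 2 arrays per shRNA, limma adjusted p = 0.495, and 0.0264 with time point as a block). IL18, the other cytokine that CASP1 matures, was higher on both knockdown arrays, with signals of -0.37 and -0.55 against 0.05 and 0.14, but with 0.56 ± 0.13 (SE, n = 2 arrays per shRNA, limma adjusted p = 0.406) it did not reach 2-fold. GSDMD, which encodes the pore-forming gasdermin D, had 0.44 at 48 h and 0.01 at 96 h, and 0.23 ± 0.16 over both (limma adjusted p = 0.830). IL1B was the 1 call, lower, among the 18 of 27 inflammasome genes that were tested, and the median of the list was 0.10. The calls of IL1B and DTX4 were lost without the control array of 48 h or the ALKBH3 shRNA array of 96 h, and by the methods' t-test. That of DTX4 was also lost with normexp, with quantile normalization, with both together, with median centring, with the authors' values and with a filter on all 4 arrays.

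Among 8 target genes of the pathway tested out of 11, 2, IFIT1 and IFIT3, were called higher, where 1.04% of all genes were, and 0 passed an adjusted p of 0.05 by limma. All 8 had higher signals with ALKBH3 shRNA at both times, as did 34.6% of all genes, and their median log2 fold change was 1.33. CXCL10 and IFNL1 are among the 8 and entered the test only through the ALKBH3 shRNA arrays, where they were high. IFIT1 had signals of 3.64 and 2.90 with control shRNA and 5.57 and 4.15 with ALKBH3 shRNA, a log2 fold change of 1.58 ± 0.55 (SE, n = 2 arrays per shRNA, limma adjusted p = 0.573, and 0.0349 with time point as a block). IFIT3 had 2.09 at 48 h and 0.96 at 96 h, and 1.52 ± 0.56 over both (limma adjusted p = 0.591). Like that of IFI16, both calls were lost without the ALKBH3 shRNA array of 48 h or the control array of 96 h, with no filter and by the methods' t-test, and that of IFIT3 also with normexp followed by quantile normalization and with the authors' values. CXCL10, a chemokine that draws T cells, was above background on both ALKBH3 shRNA arrays and on 0 control arrays. It was 3.1-fold higher when the control of 96 h was set to the lowest signal well above background. The control of 48 h, with an intensity of 22.4, entered with its own signal, so this is not a lower limit. Like DTX4, CXCL10 entered the test only through the group where it was high, with control values not well above background. It did not pass the cutoffs (limma adjusted p = 0.622), but passed them with time point as a block (limma adjusted p = 0.0587). The type III interferons IFNL1 and IFNL2 had log2 fold changes of 0.85 ± 0.24 and 0.70 ± 0.42 (SE, n = 2 arrays per shRNA, limma adjusted p = 0.486 and 0.776). IFNL1 was above background on both ALKBH3 shRNA arrays and on 1 control array. For IFNL2 the log2 difference was 1.32 at 48 h and 0.08 at 96 h. IFNB1, the type I interferon that STING signalling induces, was above background on the ALKBH3 shRNA array of 48 h alone and was not tested.

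**Figure D4:**
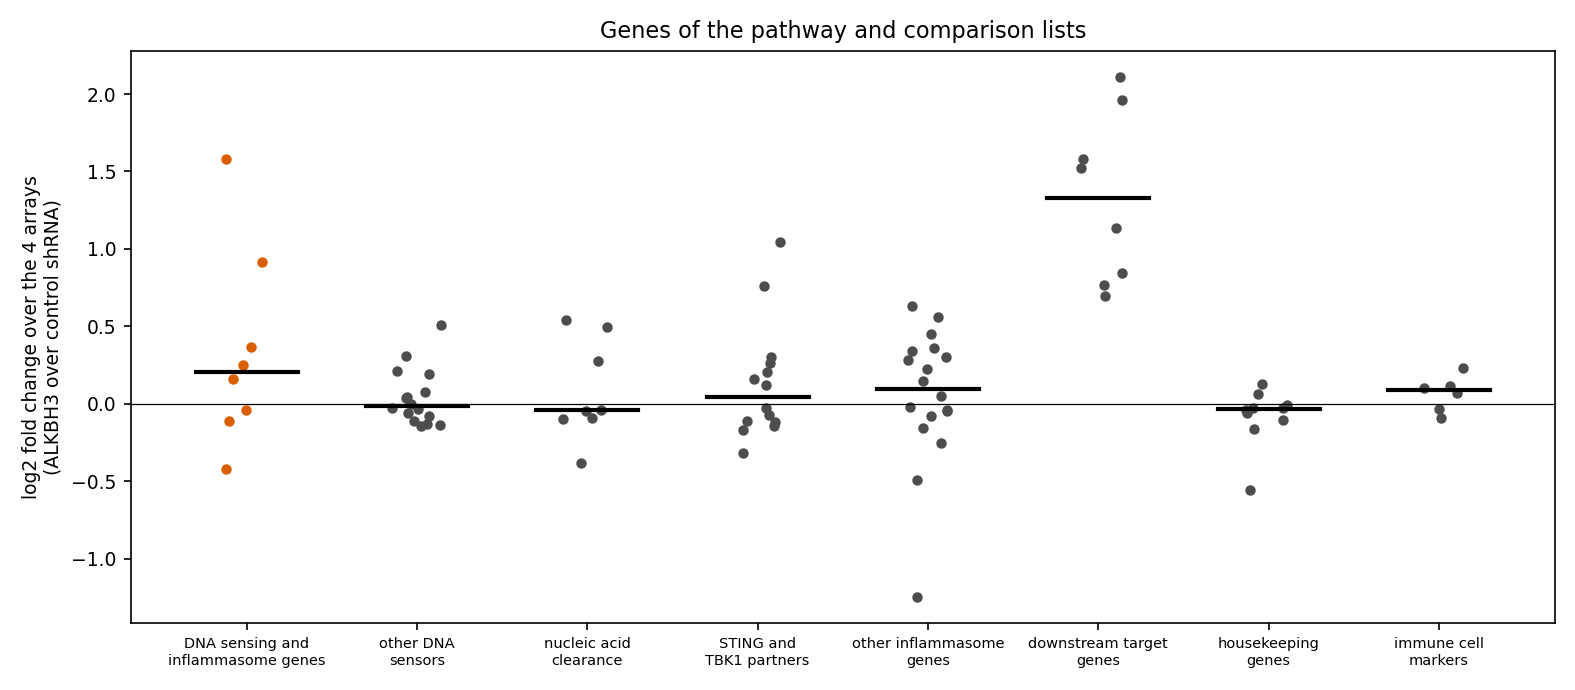
Log2 fold change of ALKBH3 over control shRNA, fitted over the 4 arrays, for each tested gene of the set (orange) and of the lists (grey), with the median of each as a bar. DTX4 and CXCL10 are drawn at their fitted values although their controls were not above background. IFNL1 is drawn too, although it was above background on 1 control array only. The target genes have a median of 1.33, and the set and the other lists drawn have medians between -0.04 and 0.20.

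Housekeeping genes gave 0 calls among 10, with a median of -0.03. Of these, TFRC was lower at both times, with a log2 fold change of -0.56 ± 0.17 (SE, n = 2 arrays per shRNA, limma unadjusted p = 0.0263, adjusted p = 0.524, and 0.0472 with time point as a block). Markers of immune cells, which express many genes of the set at high levels, were read as well. Of 9 immune markers named, between 6 and 7 were well above background on an array. Their summed intensity at 48 h was 1911 in control and 2323 in knockdown cells, against 1653 and 1726 at 96 h. The sum, of intensities not centred between arrays, was highest on the array where IFI16, AIM2 and CASP1 were also highest. The sums of the epithelial markers, 163788, and of the luminal prostate markers, 8902, were highest on that array too. Most of the immune sum came from 1 gene, CD68. Its intensity was 1313 in control and 1645 in knockdown cells at 48 h, and 1010 and 1028 at 96 h. What part the markers had in the values of the set was not tested. None of the 6 immune markers tested was called, and their median log2 fold change was 0.09.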

How the data were processed

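RNA from PC3 cells with ALKBH3 or control (GFP) shRNA was measured on 4 Agilent single-colour arrays, 1 for each shRNA and time point (48 h and 96 h). The authors deposited spot intensities from Agilent Feature Extraction, per the file headers corrected for background and spatial trends on each array, without normalization between arrays. They also deposited log2 values normalized between arrays with limma, used here as an alternative.

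Each array held 44495 spots, 43118 of them not controls. Spots marked as not uniform or as outliers (180 to 379 per array) were removed, and 0 were saturated. Log2 intensities were centred on the 75th percentile of the array, and spots of a probe were averaged. Because the spot tables hold accessions and not symbols, symbols came from matching accessions to RefSeq (GRCh38.p14), by which 24910 of 34127 probes were named and 9217 were not. Testing required a probe to be well above background, in at least 0.5 of its spots, on both arrays of 1 shRNA or of both. The brightest tested probe represented a gene. For a gene with a dim group, a bound was set against the lowest signal well above background on each array of that group, an intensity of 18.6 to 25.8. Where the gene's own signal on that array was higher, its own signal was used, and the ratio is then not a lower limit.

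The shRNAs were compared with limma 3.58.1 (lmFit and eBayes, R 4.3.3) over all 14556 genes and no covariate. A call needed a change of 1 or more on the log2 scale and a p under 0.05 before adjustment; adjusted p-values are Benjamini-Hochberg values for the whole array. Log2 differences between 96 h and 48 h in the 2 shRNAs correlated across genes (Pearson r = 0.703, genes not being independent), and the labels pair the arrays by time point, so time point served as a block in an alternative fit. With that block, p-values measured only how far the shRNA difference varied between the time points, and not the spread between 48 h and 96 h. The number of arrays limits the precision. The code was tested on simulated data.

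The genes and lists were chosen with earlier results of these data known. Named are all genes of the set, ALKBH3, the genes of a list past the cutoffs, the first 3 tested genes of each pathway list as written, and the 3 genes nearest in pattern to the gene of the set with the largest change. IFNB1 and ZBP1 were named after their values were seen, as first in their lists but not tested. EPCAM and CDH1, as markers, and TFRC, as a housekeeping gene, were named likewise because they differed between the shRNAs with the block. Promoter windows came from RefSeq, and those of CASP1 and STING1 were not analysed here.

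Other settings tried were normexp (offset 50), alone or followed by quantile normalization, quantile normalization by itself, median centring, the 75th percentile over probes above background on all arrays, the authors' values, no filter, a filter requiring all 4 arrays, averaging a gene's probes, probes in place of genes, the methods' t-test, the block, a 1.5-fold cutoff, an adjusted p of 0.05, a 2-fold change at both times, and leaving out each array.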

Additional observations from a re-analysis of the deposited data

Results flagged for a closer look

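TBK1 moved in opposite directions at the 2 time points, with a log2 fold change of ALKBH3 over control shRNA of 0.073 at 48 h and -0.30 at 96 h. Each value compares 1 array with 1 array, and the difference between the time points was not tested.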

How the results depend on the processing

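The number of genes of the set called higher was 1, IFI16, and went to 0 with no filter on dim probes (limma unadjusted p = 0.0537, since more genes were fitted), by the methods' t-test, and at an adjusted p of 0.05. Leaving out 1 array gave 0 to 3, with 0 without the ALKBH3 shRNA array of 48 h or the control array of 96 h, and AIM2, CASP1 and IFI16 without the ALKBH3 shRNA array of 96 h. AIM2 entered that fit only through its 1 bright array. No gene of the set was called lower in any of the 19 alternatives. Over all genes, the 151 called higher became 62 with normexp, 66 with normexp and quantile normalization, 88 with the authors' values, 276 with no filter, 100 with a filter on all 4 arrays, 45 by the methods' t-test, 415 at 1.5-fold, 0 at the adjusted p and 149 to 381 without 1 array. The 34 called lower became 22, 21, 56 (no filter), 15 (t-test), 187 (1.5-fold), 0 (adjusted p), 21 (2-fold at both times) and 30 to 89 without 1 array. Instead of 4 genes of the pathway lists, a replicate block for time point called 7, against 0 by the t-test, 7 at 1.5-fold, 0 at the adjusted p and 2 to 10 without 1 array. The sign of the log2 fold change turned for 5 genes. Without 1 array, TMEM173 ranged from -0.17 (ALKBH3 shRNA of 48 h left out; -0.019 without the control of 96 h) to 0.49, IKBKE from -0.20 to 0.12 (control of 96 h left out; 0.093 without ALKBH3 shRNA of 48 h), CASP1 from -0.30 to 2.13 and NLRP3 from -0.021 to 0.52, both lowest without the ALKBH3 shRNA array of 48 h, and TBK1 from -0.27 to 0.039, highest without the ALKBH3 shRNA array of 96 h. TBK1 was also at 0.0076 with normexp and quantile normalization. The cause was not tested. IFI16 stayed higher throughout, from 0.85 to 2.32 without 1 array and 1.42 to 1.60 otherwise, and PYCARD lower, from -0.48 to -0.38. The block changed no other call of a gene of the set at the cutoffs. Naming probes by the symbols of the array files was not run, as those used here give accessions alone. Signals near background limit AIM2, CASP1 and IKBKE.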
